A study of Mus musculus with 4 samples.

Results

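A noncycling state of mammary epithelial cells that lacked *Crct1* and carried *Sox11*, *Ptgs2*, *Sema3c*, *Amot*, *Agrn* and *Itga3* was examined in LATS1/2-KO mammary glands. A cell was a member if it had UMIs (unique molecular identifiers, counted RNA molecules) of at least 3 of these 6 genes, none of *Crct1*, and UMIs of fewer than 2 of 8 mitotic genes (*Ube2c*, *Birc5*, *Cdk1*, *Cdca8*, *Ccnb1*, *Cdc20*, *Top2a* and *Mki67*). Epithelial cells were those with *Krt8* and *Krt18* together at 10 or more UMIs per 10000 and no UMI of *Ptprc*, the pan-leukocyte antigen CD45. By this rule 849 of 7279 LATS1/2-KO epithelial cells were members, of 18200 kept cells in all 4 libraries: 372 of 3861 in LATS1/2-KO replicate 1 and 477 of 3418 in LATS1/2-KO replicate 2. The other noncycling *Crct1*-negative epithelial cells of the same mice, 2223 and 2065, served for comparison and are called the other cells. The members were chosen by UMIs of the 6 genes, of *Crct1* and of the mitotic genes, so the levels of these genes are given as a description with no test.

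The libraries were 10X Genomics 3' single-cell RNA libraries of live cells sorted from mammary glands, 1 library per mouse, from 2 CTL and 2 LATS1/2-KO mice. All 4 mice carried Lats1f/f;Lats2f/f and the R26-lsl-EYFP reporter, and all received 2 mg of tamoxifen on each of 5 days, with tissue taken 7 days after the last dose. CTL mice had no Cre, so an effect of Cre itself and the loss of LATS1/2 cannot be told apart, whereas LATS1/2-KO mice carried Krt8-CreERT2, a tamoxifen-dependent Cre driven by the promoter of a luminal keratin gene. The reporter was heterozygous in both CTL mice and in LATS1/2-KO replicate 1, and homozygous in LATS1/2-KO replicate 2, so a difference between the LATS1/2-KO mice and the number of reporter alleles cannot be told apart. The mice were adult and nulliparous, aged 3 to 10 months, and cells came from several pairs of glands of each mouse. The kept cells numbered 4914 and 3515 in CTL and 4499 and 5272 in LATS1/2-KO, with 38792520 to 46810771 UMIs per library. Library pairs shared 4 to 12 cell barcodes.

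LATS1 and LATS2 are the kinases of the Hippo pathway. They phosphorylate the coactivators YAP and TAZ, which keeps them out of the nucleus, and without LATS1/2 the coactivators reach TEAD transcription factors and raise genes such as *Ctgf*, *Cyr61* and *Ankrd1*. The mammary epithelium holds an outer basal layer and inner luminal cells, the latter comprising hormone-sensing cells and secretory luminal progenitors. SOX11 is a transcription factor of embryonic progenitors, PTGS2 (COX-2) is the inducible enzyme of prostaglandin synthesis, and SEMA3C is a secreted guidance ligand. AMOT is a junctional protein that binds YAP, agrin is a heparan sulfate proteoglycan of basement membranes, and ITGA3 is the alpha chain of a laminin receptor.

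The sequence before the start of *Sox11* and *Ptgs2* is shown because these genes name the state, and that of *Igfbp2* because it was among the genes highest in members and the only one of these with an AP-1 motif. The sequences are from RefSeq on GRCm38.p6, 5' to 3' on the gene's strand, 250 bases that end just before the start site, with a match to a searched motif in capitals. The *Sox11* sequence lies at chr12:27342719-27342968 on the minus strand, the *Ptgs2* sequence at chr1:150099781-150100030 on the plus strand, and the *Igfbp2* sequence at chr1:72825137-72825386 on the plus strand, before the second of its 2 listed starts.
Sox11: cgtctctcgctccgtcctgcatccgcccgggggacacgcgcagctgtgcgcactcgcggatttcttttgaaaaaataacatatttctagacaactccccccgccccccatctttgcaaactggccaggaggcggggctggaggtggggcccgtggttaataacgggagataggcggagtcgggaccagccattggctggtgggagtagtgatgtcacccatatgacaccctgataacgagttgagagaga
Ptgs2: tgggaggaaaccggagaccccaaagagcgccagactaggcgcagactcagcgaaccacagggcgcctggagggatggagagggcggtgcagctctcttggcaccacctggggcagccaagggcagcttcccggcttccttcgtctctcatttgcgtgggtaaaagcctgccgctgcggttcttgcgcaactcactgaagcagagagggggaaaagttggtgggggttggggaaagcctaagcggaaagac
Igfbp2: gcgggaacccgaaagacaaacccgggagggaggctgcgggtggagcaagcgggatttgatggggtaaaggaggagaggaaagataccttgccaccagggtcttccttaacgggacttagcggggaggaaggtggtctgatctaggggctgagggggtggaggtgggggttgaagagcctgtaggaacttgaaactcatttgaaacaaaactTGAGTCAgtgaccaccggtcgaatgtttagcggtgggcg

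The letters CATTCC, bound by TEAD factors, and TGANTCA, bound by AP-1, were searched on both strands from 250 bases before to 50 after each start. All 6 marker genes had a window, and CATTCC was in 0 of 6, while 16.6% of all 27025 genes with a window held it. TGANTCA was in 1 of 6, *Itga3*, where it lay after the start, against 8.97% of all genes. Of the 12 genes highest in members, 9 had a window, of which 0 held CATTCC and 1 held TGANTCA: the TGAGTCA of *Igfbp2*, 39 bases before the start. A match describes the letters and not a binding site, and a missing match says only that the letters are not in this window.

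Levels below are counts per 1000000 UMIs (CPM) after each cell was thinned to 2000 UMIs, which left 363 and 469 members and 1866 and 1695 other cells, and pairs of values are LATS1/2-KO replicate 1 and then replicate 2. *Sox11* was at 220.4 and 167 in members, at 6.97 and 3.83 in the other cells, and at 0.121 and 0 in noncycling CTL epithelial cells. *Ptgs2* was at 468 and 195 in members, 36.2 and 30.7 in the other cells and 0.607 and 4.51 in CTL. For all 6 genes the members lay above the other cells in both mice, which the rule fixes. *Sema3c* was at 216 and 288 in members against 13.1 and 20.1, and *Amot* at 169 and 237 against 10.2 and 15.9. *Itga3* was at 306 and 295 in members against 34.03 and 39.2 in the other cells. *Agrn* differed the least, at 237 and 265 in members against 59.8 and 87.02 in the other cells and 28.8 and 28.2 in CTL. When membership was called on one part of each cell's UMIs and levels were read from the rest, *Sox11* was at 275 and 269 in members against 12.8 and 8.06, and *Ptgs2* at 488 and 201 against 55.9 and 40.3. No gene of the 6 was seen in most thinned members: *Sox11* was detected in 23.7% and 17.9% of them and *Itga3* in 38.6% and 34.1%.

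**Figure D1:**
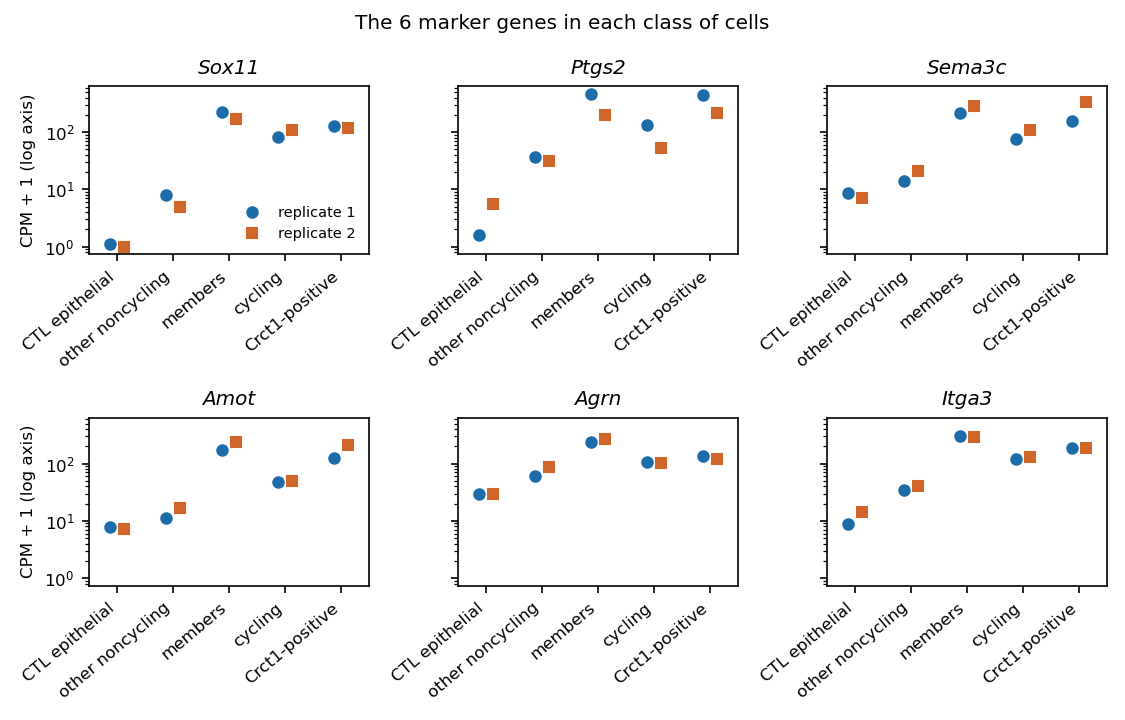
Levels of the 6 marker genes (CPM plus 1, log axis) in noncycling CTL epithelial cells and in the 4 classes of LATS1/2-KO epithelial cells, 1 point per mouse. Members sit above the other noncycling cells in both mice for each gene, as the rule fixes. Cycling and Crct1-positive cells lie between these classes for Sox11. For Ptgs2 the Crct1-positive cells are at 451 and 218 against 468 and 195 in members (replicates 1 and 2).

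The label of a luminal state was checked against lineage markers. *Krt8* was at 7331 and 6308 in members and 3834 and 3427 in the other cells, and *Krt18* at 8059 and 7346 in members and 5117 and 5215 in the other cells; both were part of the rule for epithelial cells. By which of 3 marker lists (luminal progenitor, hormone-sensing, basal) had the most genes detected, 59.9% and 68.1% of members were of luminal progenitor type, 18.3% and 11.7% of hormone-sensing type and 9.68% and 9.22% of basal type, and the rest were tied or had no marker detected. The other cells were of luminal progenitor type in 61.8% and 73.8%, hormone-sensing in 17.2% and 5.91% and basal in 13.7% and 12.4%. These types were called over all UMIs of each cell and thus not at equal depth. By this call members held cells of each lineage type, most of them luminal. *Krt14*, a basal keratin, was at 2961 and 1938 in members against 649.5 and 541 in the other cells.

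Members made up 9.63% of LATS1/2-KO replicate 1 epithelial cells (95% exact binomial interval 8.72 to 10.6) and 14.0% of replicate 2 (12.8 to 15.2). The same rule took 53 of 4436 (1.19%) and 53 of 3225 (1.64%) CTL epithelial cells, none with 5 or 6 of the genes. These CTL cells had median depths of 23310 and 23034 UMIs, against 8187 and 10366 in the other noncycling CTL epithelial cells. When cells were thinned to 2000 UMIs before the rule was applied, the shares were 5.26% and 5.31% in LATS1/2-KO and 0 of 4217 and 0 of 3152 cells in CTL, with exact upper bounds of 0.0874% and 0.117%. With 2 mice a group an exact permutation test cannot give a two-sided p under 0.33, and the intervals cover counting error only. Members were also deeper than the other cells, with medians of 9918.5 and 11749 UMIs against 4941 and 5164, so comparisons were made at equal depth.

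The 6 genes were found in other classes as well. At least 3 of them were detected in 56.4% and 65.5% of cycling LATS1/2-KO epithelial cells and in 56.1% and 67.8% of *Crct1*-positive ones, with *Crct1* being a gene of the epidermal differentiation complex. These classes were deep too, with median UMIs of 13915.5 and 18617 and of 10337.5 and 12907. Among non-epithelial cells of the LATS1/2-KO libraries, those below the limit on *Krt8* and *Krt18*, at medians of 5715.5 and 4551 UMIs, the share was 1.54% and 1.38%. After thinning, *Ptgs2* was at 451 and 218 CPM in *Crct1*-positive cells and 133 and 52.4 in cycling ones. *Sox11* was at 128 and 118 in *Crct1*-positive cells and 81.0 and 109 in cycling ones.

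EYFP, the reporter of Cre activity, was not part of the rule, and more members than other cells carried it. After thinning, an *EYFP* UMI was found in 17.4% of members (95% exact binomial interval 13.6 to 21.7) and 2.63% of the other cells in LATS1/2-KO replicate 1, and in 25.6% (21.7 to 29.8) and 4.54% in replicate 2. The shares differed by 14.7 and 21.0 percentage points. The intervals of the classes did not overlap in either mouse, but they cover only counting error over the cells of each library. The background was lower: an *EYFP* UMI was seen in 0.815% and 1.34% of non-epithelial LATS1/2-KO cells and in 0.0486% and 0.0334% of noncycling CTL epithelial cells at the same number of UMIs. In the fit over all genes, *EYFP* was at 132 and 195 CPM in members against 15.5 and 27.1, with a log2 fold change of 2.84 ± 0.164 (SE; edgeR quasi-likelihood adjusted p = 1.98e-14). Without thinning, 40.6% and 48.2% of members and 6.25% and 9.69% of the other cells had an *EYFP* UMI. When membership was called on the thinned counts too, the shares were 24.2% and 30% of members against 5.77% and 10.3%, and the log2 fold change was 1.65.

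The share of *EYFP*-positive cells followed the number of the 6 genes detected. In LATS1/2-KO replicate 1 it was 2.36% in cells with 0 of the genes, 3.73% with 2, 10.3% with 3 and 30.6% with all 6. In replicate 2 it was 2.76%, 5.99%, 16% and 43.7%. The step between cells just outside the rule (2 genes, 332 and 423 cells) and just inside it (3 genes, 140 and 187 cells) was thus seen in both mice. Between the same cells *Ctgf*, a direct target of YAP/TAZ and TEAD, went from 374 to 824 and from 544 to 1169 CPM, and *Krt14* from 1009 to 2059 and from 798 to 994. These values are across cells of the same 2 libraries and describe them. The readouts were thinned, but the 6 genes were counted over all UMIs, and median depth also rose with their number, from 7634 and 8071 UMIs at 2 genes to 8808.5 and 10024 at 3 and 12965 and 13690 at 6.

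**Figure D2:**
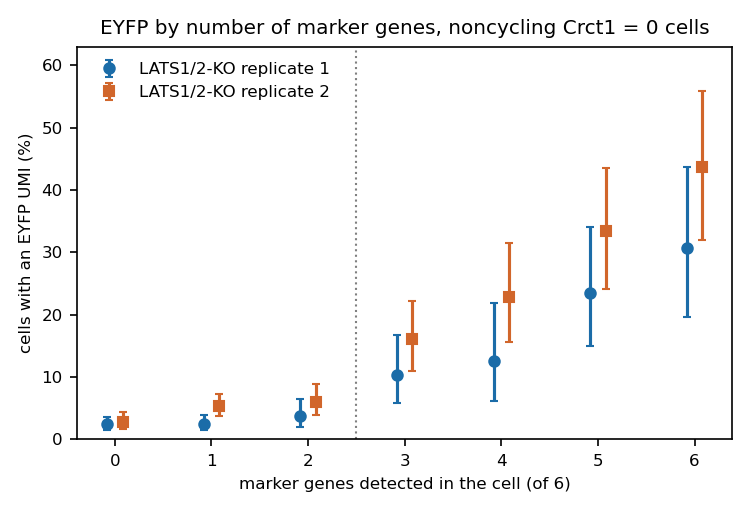
Share of noncycling Crct1-negative epithelial cells with an EYFP UMI after thinning (%, y axis) by the number of marker genes detected (x axis), per LATS1/2-KO mouse, with 95% exact binomial intervals; members lie to the right of the dotted line. The share stays at or below 5.99% up to 2 genes and reaches 30.6% and 43.7% with 6.

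Members were compared with the other cells of the same mice in sums per mouse and class, by edgeR's quasi-likelihood test with the mouse as block and Benjamini-Hochberg adjustment (threshold 0.05), with all 18 genes of the rule left out. Of 9536 genes tested, 1117 (11.7%) were higher and 1202 (12.6%) lower in members, 24.3% in all. DESeq2 called 1030, and sums without thinning 5022. When membership was called on one part of each cell's UMIs and the test run on the rest, 1937 of the 2319 genes could be tested, 1904 kept their direction and 1311 passed. Classes of cells were summed within 2 mice with the mouse as block, so the p-values measure how much class differences vary between these mice. This variation was estimated over the 8 sums of all 4 classes, with 3 residual degrees of freedom. Each gene's spread was drawn towards that of all genes, weighted as 26.8 prior degrees of freedom. The p-values thus rest mostly on spread shared between genes. Because this is a contrast of cell classes set by measured genes, counts of lists are read beside these shares, and the median log2 fold change of all tested genes was -0.003 (list medians below stand beside it). Values in brackets after a gene are log2 fold changes, which carry TMM scaling, whereas levels do not.

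The 12 genes highest in members, by log2 fold change, were led by *Msln*, *Wnt7a* and *Sema3e*. *Msln* (mesothelin, a cell surface glycoprotein) was at 537 and 399 in members against 14.2 and 18.9 in the other cells, a log2 fold change of 4.72 ± 0.164, and at 0.486 and 0.167 in CTL. *Igfbp2*, a binding protein of insulin-like growth factors, was at 4309.9 and 3865 in members against 197 and 299 in the other cells (4.0 ± 0.137). Both were above the other cells in each mouse, which the rule for naming these genes required, and *Igfbp2* had the most UMIs of the 12. *Wnt7a*, a Wnt ligand, was at 46.8 and 41.6 in members against 0.804 and 2.95 in the other cells (4.42). *Sema3e*, a class 3 semaphorin like *Sema3c*, was at 64.7 and 73.6 in members against 3.75 and 2.06 in the other cells (4.40). *Cdh2* (N-cadherin) was at 61.98 and 75.7 in members against 6.16 and 4.42 in the other cells (3.58). *Cdkn2a*, which encodes the cell cycle inhibitors p16INK4A and p19ARF, was at 61.98 and 50.1 in members against 5.63 and 3.24 in the other cells (3.52). *Htra1*, a secreted serine protease, was at 309.9 and 325 in members against 35.1 and 27.1 in the other cells (3.24). The remaining genes of this group were *Atg9b* (4.24), an autophagy protein, *Upk1b* (3.90), a uroplakin, *Klhdc8a* (3.52), *Npr3* (3.51), the clearance receptor of natriuretic peptides, and *Fgfbp1* (3.34), a carrier of fibroblast growth factors. All 12 stayed past the threshold under each alternative that tested them. Against *Crct1*-positive cells 14 genes passed as higher in members, and none of the 12 was among the 5 named highest there. The 12 genes are thus not shown to set members apart from *Crct1*-positive cells.

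**Figure D3:**
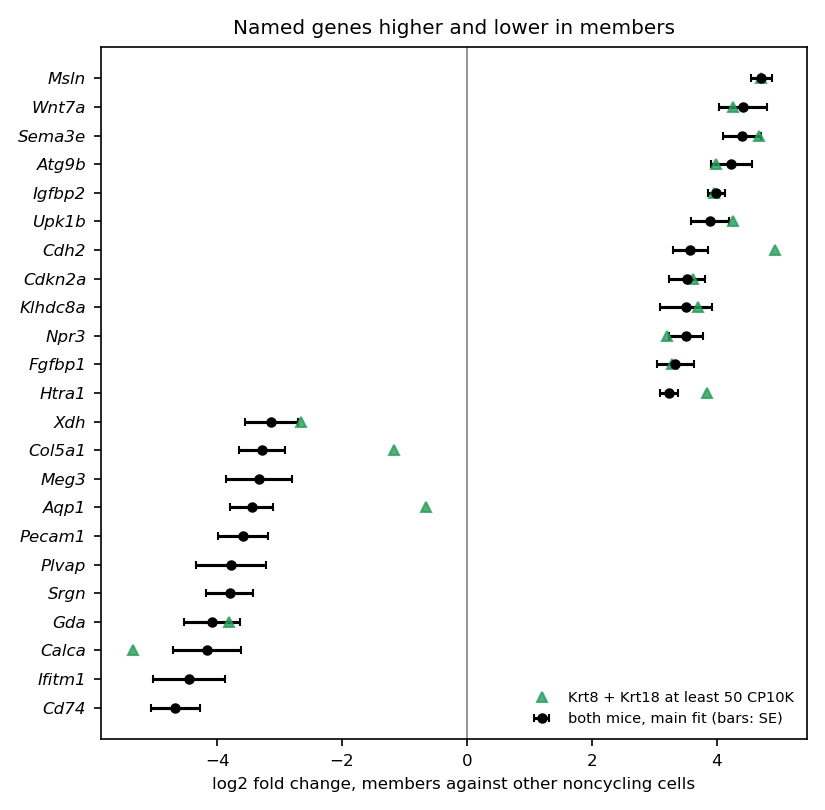
Log2 fold change of members against the other noncycling cells for the 12 higher and 11 of the lower named genes, as circles with the SE of the fit (x axis, 1 gene per line), and as triangles when epithelial cells needed 50 UMIs of Krt8 and Krt18 per 10000. Genes without a triangle were not tested at that limit. The 12 higher genes run from 3.24 to 4.72 and the 11 lower from -3.13 to -4.67; Aqp1 and Col5a1 move towards 0 at the higher limit.

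Many of the genes lowest in members are known from other cell types. *Cd74*, the invariant chain of MHC class II, was at 4.13 and 2.13 in members against 130.2 and 30.97 in the other cells (-4.67), and at 1099 and 454 in the non-epithelial cells. *Srgn* (serglycin, of blood cells; -3.80), *Plvap* (-3.78) and *Pecam1* (-3.59), both of endothelium, *Aqp1* (-3.44), the long noncoding RNA *Meg3* (-3.33) and *Col5a1* (-3.28) were likewise highest in the non-epithelial cells, where *Pecam1* was at 268 and 159.6 and *Col5a1* at 464 and 341. *Ifitm1*, an interferon-induced membrane protein, had 2 UMIs in members of both mice and was lower by 21.3-fold (95% exact counting interval 5.80 to 177); it was at 103 and 306 in non-epithelial cells. *Calca* was of another kind. *Calca*, which encodes calcitonin and CGRP, was at 1.38 and 5.33 in members against 81.99 and 44.5 in the other cells (-4.16), at 2.04 and 1.34 in non-epithelial cells and at 274 and 96.96 in CTL epithelium. Among luminal progenitor type cells alone it was at -1.16 with an adjusted p of 0.448 (edgeR). *Xdh*, xanthine dehydrogenase of the milk fat globule, was at 1.38 and 5.33 in members against 28.4 and 31.3 in the other cells (-3.13) and 53.97 and 118 in non-epithelial cells. *Gda*, guanine deaminase, was at 1.38 and 3.20 in members against 43.4 and 36.3 in the other cells (-4.09) and 236 and 214 in non-epithelial cells.

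Marker lists of other cell types moved with this contrast. The summed level of 6 fibroblast markers was 529 and 431 in members and 2932 and 1548 in the other cells, against 20658 and 16162 in non-epithelial cells, and 6 of 6 were lower in members, among them *Col1a1* (-2.44), *Col3a1* (-2.41) and *Dcn* (-2.22). Endothelial markers summed to 11.02 and 17.1 against 183 and 81.1, with 4 of 4 tested lower. The endothelial *Cdh5*, with 2 UMIs in members, was lower by 23.8-fold (95% exact counting interval 6.51 to 198), and *Emcn*, with 1 UMI, by 25.9-fold (95% exact counting interval 4.56 to 1033). Macrophage markers summed to 55.1 and 49.04 against 302 and 113 (4 of 5 tested lower, *C1qb* (-3.12) and *C1qa* (-2.69) among them). Perivascular markers summed to 22.04 and 30.9 against 78.5 and 53.1 (1 of 2 tested lower), *Pdgfrb* by 16-fold (95% exact counting interval 4.35 to 133). Lymphocyte and adipocyte markers were too low to be tested, with lymphocyte sums of 2.75 and 7.46 in members against 13.1 and 10.3 and adipocyte sums of 0 and 1.07 against 1.07 and 6.78. At least 2 markers of other cell types were found in 72.6% and 80.3% of members and in 73.8% and 74.0% of the other cells, over all UMIs of each cell and thus not at equal depth. No doublets were removed. With cells that had 2 or more of these markers left out, 728 of 4051 genes were called and *Col3a1* was at -1.21 (adjusted p = 0.12, edgeR), whereas *Cd74*, *Ifitm1*, *Srgn*, *Plvap*, *Pecam1*, *Aqp1*, *Meg3*, *Col5a1*, *Calca*, *Xdh* and *Gda* could not be tested. A second comparison was chosen after the values had been seen: with *Krt8* and *Krt18* at 50 or more UMIs per 10000, *Cd74*, *Ifitm1*, *Srgn*, *Plvap*, *Pecam1* and *Meg3* fell out of the test, *Aqp1* was at -0.66 (adjusted p = 0.442, edgeR) and *Col5a1* at -1.16 (adjusted p = 0.111), whereas *Calca* (-5.35), *Gda* (-3.81) and *Xdh* (-2.66) stayed lower. The part of RNA from other cells in the lower genes was not tested further.

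Targets of YAP/TAZ were higher in members in 13 of 21 tested and lower in 3 (median 0.86). *Ctgf* was at 1171 and 1777 in members against 241 and 394 in the other cells (2.13), and at 12.3 and 15.2 in CTL. *Ankrd1*, a nuclear ankyrin repeat protein, was at 415 and 416 in members against 56 and 61.7 in the other cells (2.73). *Cyr61*, a matricellular protein, differed less, at 1066 and 1178 in members against 621 and 838 in the other cells (0.53, adjusted p = 3.25e-05 by edgeR). *Nuak2* (2.94), a kinase, *Amotl2* (2.44), a relative of *Amot*, and *Tgfb2* (2.16) were the others with the largest differences. The Hippo pathway and TEAD list had 11 of 24 higher and 1 lower (median 0.26). *Vgll3* (3.28), a TEAD cofactor, *Tead4* (1.43) and *Tead1* (1.24) were higher. *Tead3* (-0.48), *Yap1* (-0.34) and *Wwtr1* (-0.13), which encodes TAZ, did not pass the test, and *Tead2* is listed under more than 1 identifier and is uncertain. The 1 lower gene was *Lats1*, at 11.02 and 13.9 in members against 28.1 and 27.7 in the other cells (-1.24 ± 0.332, adjusted p = 0.00544 by edgeR) and at 21.3 and 22.03 in CTL. *Lats2* was at 31.7 and 43.7 in members against 32.7 and 29.5 in the other cells (0.21) and did not pass. The 3' reads need not cover the floxed exons, so these values do not measure deletion.

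The prostaglandin pathway around *Ptgs2* was split, with 2 of 8 tested members higher and 2 lower (median -0.10); 20 genes were listed. *Pla2g4a*, the phospholipase that frees arachidonic acid, was at 46.8 and 31.98 in members against 15.8 and 17.4 in the other cells (1.12), and *Slco2a1* (0.86), a prostaglandin transporter, was higher as well. *Ptges*, which makes PGE2 from the product of PTGS2, was at 22.04 and 17.1 in members against 35.6 and 38.1 in the other cells (-1.03), and *Hpgd*, which breaks prostaglandins down, at 1.38 and 6.40 in members against 17.7 and 17.1 in the other cells (-2.12; -3.77 and -1.52 within each mouse). Of the semaphorins and their receptors, 5 of 12 tested (30 listed) were higher and 2 lower (median 0.59). Besides *Sema3e*, *Plxnb2* (1.11), a plexin, was higher, and *Sema5a* (-2.23) and the receptor *Nrp1* (-1.22), which binds class 3 semaphorins, were lower. Growth factor ligands were higher in 17 of 28 tested and lower in 4 (median 0.79). *Inhba*, the subunit of activin A, was at 163 and 69.3 in members against 16.9 and 11.2 in the other cells (2.91). *Edn1* (endothelin 1) was at 277 and 247 in members against 28.4 and 52.2 in the other cells (2.62) and *Wnt7b* at 251 and 322 in members against 46.9 and 41.9 in the other cells (2.59). *Areg* (amphiregulin), an estrogen-induced ligand of EGFR, was at 138 and 92.8 in members against 758 and 222 in the other cells (-2.02), and at -0.27 (adjusted p = 0.6, edgeR) among luminal progenitor type cells alone; *Areg* is in the hormone-sensing list, which helped to set that type.

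Around *Agrn* and *Itga3*, 7 of 17 tested basement membrane genes were higher and 5 lower (median -0.06). The lower ones included *Lama2* (-2.63), *Col4a1* (-1.51), *Col4a2* (-1.37) and *Nid1* (-1.31), and in non-epithelial cells *Lama2* was at 169 and 136, *Col4a1* at 825 and 621, *Col4a2* at 557 and 424 and *Nid1* at 314 and 244. With *Krt8* and *Krt18* at 50 or more UMIs per 10000, where 11.3% of all 9119 tested genes were higher and 11.2% lower (22.6% in all), 10 of 16 were higher and 1 lower, and *Col4a1* (0.39), *Col4a2* (0.54) and *Nid1* (0.59) had the opposite sign. *Col4a5*, a type IV collagen chain, was higher in members (1.21). Integrins were higher in 5 of 11 tested and lower in 2 (median 0.54). *Itgb6*, the epithelial beta chain that binds latent TGF-beta, was at 175 and 126 in members against 35.4 and 25.4 in the other cells (2.21). *Itgb4* (1.10), the hemidesmosome chain, was higher and *Itga8* (-2.03) and *Itgb8* (-1.16) were lower. Focal adhesion and actin genes were higher in 24 of 38 tested and lower in 2 (median 0.54), among them the tropomyosin *Tpm1* (1.59), the actin crosslinker *Actn1* (1.57) and *Cald1* (1.34). *Tpm1* was at 2450.4 and 1901 in members against 659 and 686 in the other cells, so that the classes did not overlap.

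**Figure D4:**
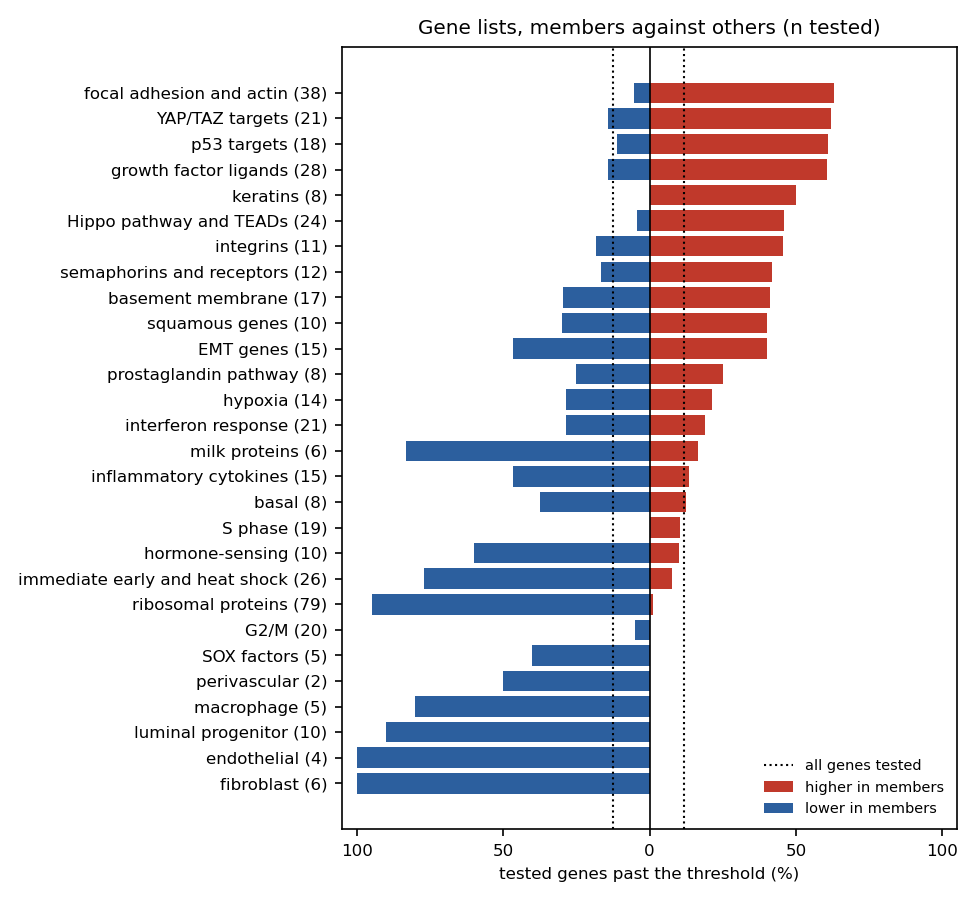
For each gene list with tested genes, the percent of tested genes higher (right) and lower (left) in members than in the other noncycling cells; the number tested is in brackets and dotted lines mark the shares over all genes, 11.7% higher and 12.6% lower. Focal adhesion and actin, YAP/TAZ targets and growth factor ligands lie far to the right, and luminal progenitor, ribosomal protein and immediate early genes to the left.

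Genes of the luminal lineages were lower in members. Of 10 luminal progenitor genes 0 were higher and 9 lower (median -1.50). *Csn3* (kappa-casein) was at 319.6 and 558 in members against 1282 and 1644 in the other cells (-1.83), and *Trf* (transferrin) at 67.5 and 152 in members against 278 and 540.4 in the other cells (-1.99). *Cd14* (-1.77) and *Ltf* (lactoferrin, -1.60) were lower as well. Hormone-sensing genes were lower in 6 of 10 and higher in 1 (median -1.22), and summed to 715 and 728 in members against 1876 and 837 in the other cells. Among luminal progenitor type cells alone, a type this list helped to set, 0 of 8 tested were lower and 1 higher (median -0.23), where 1766 of all 9248 genes passed. *Cited1* was at 12.4 and 3.20 in members against 83.6 and 40.7 in the other cells (-3.13). *Pgr*, the progesterone receptor, was at -1.64 (-2.31 and -0.78 within each mouse). *Tnfsf11* (RANKL) had 3 UMIs in members and was lower by 4.91-fold (95% exact counting interval 1.60 to 24.4). Milk protein genes were lower in 5 of 6 tested and higher in 1: *Muc15* (-1.51) and *Muc1* (-1.22) were lower besides *Xdh*, while *Btn1a1* (butyrophilin) was at 12.4 and 21.3 in members against 4.02 and 5.31 in the other cells (1.75) and at 183 and 160.2 in CTL.

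Basal genes were split, with 1 of 8 tested higher and 3 lower (median -0.52). The higher gene was *Krt14* (1.92), which was at 26.5 and 26.03 in CTL. *Krt5*, its basal partner, was at 113 and 84.2 in members against 133 and 135 in the other cells (-0.56) and did not pass the test. *Mylk* (-2.16), *Myh11* (-1.83) and *Tagln* (-0.86), all of the contractile apparatus, were lower. Smooth muscle actin, *Acta2*, was at 336 and 265 in members against 285 and 312 in the other cells (-0.091, adjusted p = 0.696 by edgeR). With the higher limit on *Krt8* and *Krt18* the basal list had 3 of 4 tested higher and 0 lower, with *Acta2* at 2.10 and *Tagln* at 0.25. Of the keratins, 4 of 8 tested, *Krt14* among them, were higher and 0 lower (median 0.75). *Krt6a*, a stress and wound keratin, was at 135 and 57.6 in members against 17.95 and 6.19 in the other cells (2.87), and *Krt7* (1.71) and *Krt4* (1.30), of simple and internal stratified epithelia, were higher, the latter by 0.86 and 2.24 within each mouse. Squamous genes were higher in 4 of 10 tested and lower in 3 (median 0.24), with *Msln* and *Krt6a* on the higher side and *Ly6d* (-1.88) on the lower. *S100a8*, also a gene of neutrophils, had 1 UMI in members of both mice and was lower by 104-fold (95% exact counting interval 18.5 to 4107), with levels of 12.1 and 118 in the other cells and 364 and 496 in non-epithelial cells.

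Genes linked to epithelial-mesenchymal transition were higher in 6 of 15 and lower in 7 (median -0.40). *Cdh2* led the higher ones, while the transcription factors *Zeb2* (-2.73) and *Twist1* (-1.97) and the matrix protein *Tgfbi* (-2.15) were lower, and in non-epithelial cells *Zeb2* was at 230.1 and 283, *Twist1* at 83.5 and 129 and *Tgfbi* at 411 and 269. Within each mouse *Tgfbi* was at -3.44 and -0.95. With the higher keratin limit, beside its shares of 11.3% higher and 11.2% lower over all genes, 7 of 10 were higher and 2 lower. Of 5 SOX factors tested besides *Sox11* (13 listed), 0 were higher and 2 lower: *Sox4* at 635 and 671 in members against 903 and 1068 in the other cells (-0.69) and *Sox10* at 46.8 and 50.1 in members against 60.02 and 71.1 in the other cells (-0.52).

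Of the list of p53 targets and cell cycle inhibitors, 11 of 18 tested were higher and 2 lower (median 0.81). Against *Crct1*-positive cells 0 of the 18 were higher and 0 lower (median -0.055). The list summed to 2067 and 1920 in members and to 1855 and 2218 in *Crct1*-positive cells. *Pmaip1* (NOXA) was at 44.1 and 46.9 in members against 9.65 and 7.37 in the other cells (2.28) and *Zmat3* at 48.2 and 50.1 in members against 11.5 and 10.9 in the other cells (2.03), both targets of p53. *Cdkn2a* and *Cdkn2b* (2.22), which also counted here, are inhibitors of cyclin-dependent kinases or, for p19ARF, of MDM2 and not targets of p53 in the same sense. *Cdkn1a* (p21), the best known target, was at 273 and 227 in members against 198 and 199 in the other cells (0.23) and did not pass. The S phase list, apart from the mitotic genes of the rule, had 2 of 19 higher and 0 lower (median 0.20), namely *Mcm3* (1.04) and *Rrm1* (0.97), and the G2/M list 0 of 20 higher and 1 lower, *Hmgb2* (-0.85). With membership called on thinned counts *Mcm3* was at -1.23 and *Rrm1* at 0.42, and neither passed the test. The limit on mitotic genes applied to both classes.

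Immediate early and heat shock genes, which tissue dissociation is known to induce, were lower in 20 of 26 and higher in 2 (median -0.73). Against cycling cells 14 of 26 were higher in members and 0 lower (median 0.36). Against *Crct1*-positive cells 0 were higher and 0 lower. The list summed to 12543 and 13606 in members and 17058 and 19085 in the other cells. It summed to 9467 and 8985 in cycling cells and 13128 and 12138 in *Crct1*-positive cells. *Egr1* was at 216 and 366 in members against 645 and 832 in the other cells (-1.44), *Nr4a1* at -1.39 and *Egr2* at -1.30, and *Nr4a3*, with 2 UMIs in members, was lower by 9.46-fold (95% exact counting interval 2.54 to 79.5). Inflammatory cytokines were lower in 7 of 15 tested and higher in 2 (median -0.58). The neutrophil attractants *Cxcl1* (-1.73) and *Cxcl2* (-1.81) and the monocyte attractant *Ccl2* (-1.53) were lower, and *Csf1* (1.67), the macrophage growth factor, was higher, at 92.3 and 115 in members against 23.6 and 37.8 in the other cells. *Ccl2* was at 0.054 with the higher keratin limit. Interferon response genes were higher in 4 of 21 and lower in 6 (median -0.23), with *Ifit2* (1.44), *Rsad2* (1.33) and *Usp18* (0.70) higher and *Ifit3* (-0.99) lower; within each mouse *Rsad2* was at 2.35 and 0.52. Hypoxia genes were higher in 3 of 14 and lower in 4 (median -0.34), with *Adm* (1.06) higher and *P4ha1* (-1.36), *Ndrg1* (-0.87) and *Vegfa* (-0.71) lower. *Adm* (adrenomedullin) was at 93.7 and 45.8 in members against 27.1 and 33.3 in the other cells. Its log2 fold change was 1.70 and 0.36 within each mouse. With the member and other-cell sums of replicate 1 left out, *Adm* did not pass the test. Ribosomal protein genes were lower in 75 of 79 tested and higher in 1 (median -0.54), and together made up 134152 and 128737 CPM in members against 187826 and 171081. Median genes per thinned cell were 1080 and 1071 in members and 1028 and 1029 in the other cells, and median mitochondrial shares 3.56% and 4.40% against 3.95% and 4.65%; the part of RNA quality or of cell handling in these lists was not tested.

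Against the cycling LATS1/2-KO epithelial cells (932 and 677 after thinning), 918 genes (9.63%) were higher and 1016 (10.7%) lower in members, 20.3% in all. The rule sets the direction of mitotic genes here, and nothing is read from them: *Sgol1*, *Fam64a*, *Ska1* and *Cenpp* had 0 UMIs in members, at least 19.3-fold, 13.6-fold, 13.3-fold and 12.1-fold lower against a floor of 3 UMIs over both mice, and *Cenpf* had 2. The genes highest in members were *Upk1b* (4.28), *Bdnf* (3.68), a neurotrophin, *Aif1l* (3.08), an actin-binding protein, *Cdh2* (2.99) and *Msln* (2.97). *Upk1b* was at 109 and 71.4 in members against 3.76 and 5.17 in cycling cells. *Bdnf* was at 75.8 and 54.4 against 5.36 and 4.43. YAP/TAZ targets were higher in 13 of 21 and lower in 0 (median 0.82), beside a median of all genes of 0.04. Basal genes were higher in 5 of 8 and lower in 0, p53 targets and cell cycle inhibitors in 13 of 18 and 0, and luminal progenitor genes in 0 and 5 of 10. These members are the same cells as in the comparison with the other noncycling cells, so both comparisons share them.

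Against *Crct1*-positive cells (297 and 174 after thinning; cycling cells were not removed from them) few genes passed: 14 (0.147%) were higher and 24 (0.252%) lower in members by edgeR, 0.398% in all. At an unadjusted p under 0.05 there were 779 genes, DESeq2 called 5 and a fit without the mouse as block 1, so a gene that did not pass is not shown to be alike. YAP/TAZ targets were higher in 1 of 21 and lower in 0 (median 0.15), with summed levels of 4317 and 4966 in members and 3672 and 4299 in *Crct1*-positive cells. Focal adhesion and actin genes were higher in 1 of 38 and lower in 0 (median 0.23), and growth factor ligands higher in 0 of 28 and lower in 1 (median 0.21). *Col4a5* (1.44), *Acta2* (1.04), *Wisp2* (0.98), a matricellular protein, *Krt17* (0.94) and *Fn1* (0.90) (fibronectin) were the highest in members. *Krt17*, a basal keratin, was at 284 and 208 in members and 167 and 74.7 in *Crct1*-positive cells. *Trdc*, a T cell receptor constant region, was at 1.38 and 4.26 in members against 95.96 and 112 (-5.07), *S100a7a*, of the epidermal differentiation complex like *Crct1*, at 4.13 and 8.53 against 30.3 and 40.2 (-2.48), and *Krt4* at 20.7 and 14.9 against 63.97 and 45.98 (-1.60). In each of these the mice did not overlap between the classes, but genes were named for large differences with the same direction in both mice. The mitotic genes *Cenpa* (-1.94) and *Cenpf* (2 UMIs in members, lower by 35.3-fold (95% exact counting interval 9.16 to 302)) were lower in members, from which the rule had removed cycling cells. *EYFP* UMIs were in 19.2% and 35.6% of thinned *Crct1*-positive cells, 13.8% and 21.0% of cycling cells, and 17.4% and 25.6% of members.

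Whether members differed from the other cells in the same way with and without the reporter was tested with an interaction term, in cells split by any *EYFP* UMI. There were 151 and 230 *EYFP*+ members and 221 and 247 *EYFP*- members, at median depths of 11312 and 13743 against 8363 and 9265 UMIs, and 139 and 200 *EYFP*+ other cells against 2084 and 1865 *EYFP*- ones. Among *EYFP*- cells 533 of 6725 genes (7.93%) were higher and 556 (8.27%) lower in members, and among *EYFP*+ cells 389 (5.78%) and 522 (7.76%). The difference itself passed for 26 genes (0.387%), 3 higher (0.0446%) and 23 lower (0.342%), with 468 at an unadjusted p under 0.05; without the mouse as block it passed for 0. A cell without an *EYFP* UMI may still have carried the recombined reporter, since only some of its RNA was counted.

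*Ltf* and *Csn3*, genes of luminal progenitors, were lowered further in *EYFP*+ members. *Ltf* was at 9.93 and 26.3 in *EYFP*+ and 101 and 104 in *EYFP*- members, at 194 and 206 in *EYFP*+ other cells and at 200.3 and 166 in *EYFP*- other cells, an interaction of -2.52 ± 0.389 (log2). *Csn3* was at 99.3 and 169 in *EYFP*+ and 476 and 925 in *EYFP*- members, with log2 fold changes against the other cells of -3.44 and -1.19 (interaction -2.25 ± 0.264). *Wfdc3* (-2.21) and *Spp1*, osteopontin (-2.12), had the same pattern, with *EYFP*+ members the lowest of the 4 classes in both mice. *Krt5* was at 6.62 and 21.9 in *EYFP*+ and 189 and 143 in *EYFP*- members (interaction -2.27), so the *Krt5* of members was mostly in cells without an *EYFP* UMI. *Gsn* (gelsolin, an actin-severing protein) was at 549.7 and 548 against 267 and 359 (1.25) and *Sfn*, the epithelial 14-3-3 sigma, at 1437 and 996 against 894 and 593 (0.73). *Aqp1* (6.13) rested on 8 UMIs in *EYFP*+ members, 3 in *EYFP*- members and 2 in *EYFP*+ other cells. Of the YAP/TAZ targets, *Ankrd1* was at 374 and 388 in *EYFP*+ and 443 and 442 in *EYFP*- members, at 111 and 203 in *EYFP*+ other cells and at 52.01 and 45.4 in *EYFP*- other cells (interaction -1.95). *Ctgf* (-0.83) had the same order, in that *EYFP*+ other cells were above *EYFP*- ones while members were high with and without the reporter. *Igfbp2* (interaction -1.13) was at 6556 and 6094 in *EYFP*+ and 2709.9 and 1755 in *EYFP*- members, at 853 and 1226 in *EYFP*+ other cells and at 149 and 192 in *EYFP*- other cells.

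**Figure D5:**
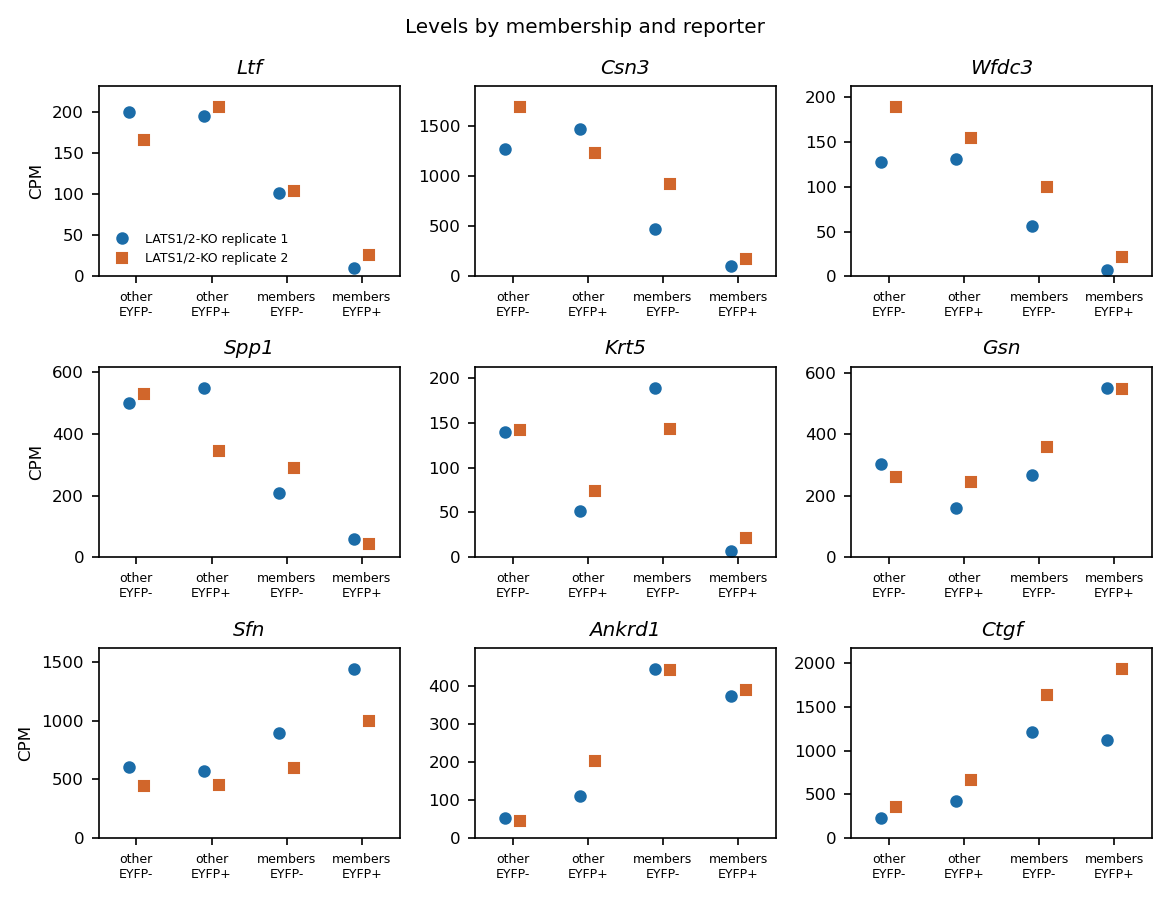
Levels of 9 genes (CPM, linear axis from 0) in other noncycling cells and members without and with an EYFP UMI, 1 point per LATS1/2-KO mouse. Ltf, Csn3, Wfdc3 and Spp1 are lowest in EYFP+ members, and Ankrd1 and Ctgf are high in members with and without the reporter.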

How the data were processed

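Single-cell libraries of 2 CTL and 2 LATS1/2-KO mice were analysed, 1 per mouse. The authors' deposited values are raw UMI counts for 28693 genes (58 symbols occur repeatedly, *Tead2* among them). The matrix headers name Cell Ranger 6.1.2 and the submitters' processing notes Cell Ranger 3.1.0 and mm10; which made the files was not settled. Barcodes needed over 500 genes and a mitochondrial share below 20%, and no doublets were removed, as the methods name no such step. Members and gene lists were chosen with earlier results of these data known. Cells were thinned to 2000 UMIs, leaving out shallower cells, and summed per mouse and class (4 classes, 8 sums); in these sums member RNA cannot be told apart from RNA of doublets. Sums were tested with edgeR 4.0.16 in R 4.3.3 (filterByExpr, TMM, quasi-likelihood F test, mouse as block, 3 residual degrees of freedom, Benjamini-Hochberg adjustment over all genes but the 18 of the rule). The mouse pairs the classes, since both come from the same animal. Genes named are, per comparison, the 12 (otherwise 5) highest and lowest past the threshold with at least 20 CPM and one direction in both mice, fixed pathway genes, and up to 4 per list; some of these are not reported here. With 1 to 3 UMIs a ratio with its exact counting interval replaced the fitted fold change. Alternatives were DESeq2 1.42.0, other normalization and filters, other depths and membership limits, membership on other UMIs, and luminal progenitor type cells only. In further alternatives the member and other-cell sums of 1 mouse were left out. On counts simulated from the fitted model of the main comparison (9384 genes), the test recovered 27.3%, 67.2% and 96.9% of genes changed by 1.5-fold, 2-fold and 4-fold. The false share was 4.55%. For the interaction (6471 genes) it recovered 3.08%, 20% and 71.0%, with 7.81% false. The choice of members by measured genes, doublets and RNA of other cells were not simulated, so these shares do not cover them. Promoters came from RefSeq, GRCm38.p6. Python 3.11.15, pandas 2.3.3 and scipy 1.17.1 were used.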

Additional observations from a re-analysis of the deposited data

Results flagged for a closer look

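The effect of membership differed between *EYFP*+ and *EYFP*- cells for 26 genes by the interaction term of edgeR (mouse as block, adjusted p under 0.05). The genes named by rule are *Aqp1* (6.13), *Gsn* (1.25) and *Sfn* (0.73), with a higher log2 fold change in *EYFP*+ cells, and *Ltf* (-2.52), *Krt5* (-2.27), *Csn3* (-2.25), *Wfdc3* (-2.21) and *Spp1* (-2.12), with a lower one. The *Aqp1* value rests on 8 UMIs in *EYFP*+ members and 2 in *EYFP*+ other cells.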

How the results depend on the processing

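The comparison of members with the other cells called 2319 genes; DESeq2 called 1030, all among them, a fit with no replicate block 1522, all among them, sums without thinning 5022, and the 4051 genes testable without cells that had 2 or more markers of other cell types 728. Leaving out 1 LATS1/2-KO mouse gave 1448 to 1541 calls, with the lone mouse's classes assumed to vary like the rest. Against cycling cells 1934 genes became 755 (DESeq2), 1080 (no replicate block) and 4442 (no thinning), and against *Crct1*-positive cells 38 became 5, 1 and 206. With no replicate block the calls in *EYFP*- cells went from 1089 to 490, in *EYFP*+ cells from 911 to 478 and for the interaction from 26 to 0; with no thinning they were 2371, 2515 and 57. When membership was called on one part of each cell's UMIs and tested on the rest, 1937 of the 2319 genes were tested, 1904 had the same direction and 1311 were called. The share of members on thinned cells was 0% and 0% in CTL and 5.26% and 5.31% in LATS1/2-KO, and in LATS1/2-KO replicate 2 it was 15.2% with *Krt8* and *Krt18* at 20 or more UMIs per 10000; the *EYFP* difference with all UMIs was 34.3 and 38.5 percentage points. Of the single named genes' checks 2596 kept their call, 248 lost it, 20 gained one and 10 changed sign. With *Krt8* and *Krt18* at 50 or more UMIs per 10000, a limit chosen after seeing the data, *Acta2* was at 2.10, *Ccl2* at 0.054, *Col4a1* at 0.39, *Col4a2* at 0.54, *Nid1* at 0.59 and *Tagln* at 0.25; *Acta2* was at 1.61 in luminal progenitor type cells and at 0.37 with 2 or more of the 6 genes, with *Gsn* then at -0.0079, and *Mcm3* at -1.23 with membership on thinned counts; the cause was not tested. Depth limits low genes: 3 UMIs over the members of both mice is the floor used.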
